A study of Sus scrofa with 44 samples.

Results

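Genes were sorted by whether they carried a peak of N6-methyladenosine (m6A) in a pig kidney cell line, in fetal pig muscle, or in both. The deposited rRNA-depleted peak list of the PK15 cells was set against the peak lists of 6 muscle stages, matching genes by the identifier given for each peak. Of 7479 genes with a peak in at least 1 of these 7 lists, 3603 (48.2%) fell into the 3 classes described here. A peak in PK15 and in no muscle stage was listed for 1138 genes (15.2%), called PK15-only genes below. A peak in all 6 muscle stages and not in PK15 was listed for 444 genes (5.94%), called muscle-only genes. A peak in PK15 and in all 6 muscle stages was listed for 2021 genes (27.0%), called shared genes. The other 3876 genes had a peak in 1 to 5 muscle stages, with or without PK15.

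The muscle was longissimus dorsi, the long back muscle, from fetuses of 33, 40, 50, 60, 70 and 95 days post coitus. These stages are called E33, E40, E50, E60, E70 and E95, and rRNA-depleted RNA of each gave 3 input libraries and 3 libraries immunoprecipitated for m6A. The kidney samples were PK15, an established pig kidney cell line that the labels give as adult, with 2 input and 2 immunoprecipitated libraries from rRNA-depleted RNA and as many from polyA RNA. The labels name no treatment, genotype or breed for either tissue, and do not say whether replicate libraries came from separate animals or cultures, so p-values measure only the spread between these libraries. The comparison therefore sets a single cultured cell line against whole tissue of fetuses, and tissue, age and culture cannot be told apart in it.

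m6A is the most common internal modification of messenger RNA. It is placed by a writer complex built around METTL3 and METTL14, within a sequence context called DRACH whose most favoured form holds the letters GGAC, and often lies in long exons and around the stop codon. Erasers such as FTO and ALKBH5 remove it, and readers of the YTH family bind it and alter the splicing, translation or decay of the transcript. In muscle precursors, m6A has been studied for its bearing on the switch from dividing myoblasts to differentiated fibres.

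The sequences under some of the peaks are given as examples, and each one printed holds GGAC, which many peaks lack. The first set gives peaks of PK15-only genes, the second gives stretches common to the peaks of all 6 muscle stages in muscle-only genes, and the third gives stretches common to all 7 lists in shared genes. All are from the RefSeq copy of Sscrofa11.1, read 5' to 3' on the transcript strand, with GGAC in capitals. The 3 longer sequences are whole peaks or whole common stretches that lie within a coding sequence (CDS), and the others are windows of 30 bases around the GGAC nearest the middle of the peak or stretch.
MARVELD2 (chr16:47535076-47535315, + strand, CDS): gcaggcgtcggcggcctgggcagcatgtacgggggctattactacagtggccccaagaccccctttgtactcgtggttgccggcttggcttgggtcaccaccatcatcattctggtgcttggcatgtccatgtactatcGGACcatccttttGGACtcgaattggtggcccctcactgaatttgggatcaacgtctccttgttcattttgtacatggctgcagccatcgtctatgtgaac
F2RL1 (chr2:85746656-85746685, + strand, 3' UTR): gctcagagtctggGGACatGGACcgggaac
IQCD (chr14:38683150-38683179, - strand, CDS): ctcagttcatccaGGACatcaccagacgga
UBASH3B (chr9:49767685-49767714, + strand, CDS): tcctcttacccatGGACcaactgggggctt
KERA (chr5:91796353-91796500, + strand, CDS): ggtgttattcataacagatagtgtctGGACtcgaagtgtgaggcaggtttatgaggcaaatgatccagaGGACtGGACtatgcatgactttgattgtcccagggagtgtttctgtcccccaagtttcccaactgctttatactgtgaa
DACT1 (chr1:187727739-187727768, + strand, CDS): ggtgtcggctcccGGACgacacggatacga
HIC1 (chr12:48170321-48170350, + strand, CDS): gctggaggaggccGGACcgcctccGGACcc
MYO18B (chr14:43473948-43473977, + strand, CDS): tccggccccagtgGGACaccagccaaaaaa
CBLL1 (chr9:107471587-107471826, + strand, CDS): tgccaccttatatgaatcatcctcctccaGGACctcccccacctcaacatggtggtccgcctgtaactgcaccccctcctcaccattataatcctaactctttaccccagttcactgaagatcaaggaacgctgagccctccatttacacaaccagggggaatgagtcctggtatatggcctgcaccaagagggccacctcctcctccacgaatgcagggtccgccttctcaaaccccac
SSC5D (chr6:59664040-59664069, + strand, CDS): tctacctcagagcGGACacagccagaatct
ZNRF3 (chr14:46234314-46234343, + strand, CDS): cgaGGACgagtatGGACtcccacgggaacc
ARHGAP35 (chr6:52837716-52837745, + strand, 3' UTR): ggtaccatgctgaGGACattagcccagcag

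These genes were among the tallest of their class by peak height, which is the authors' own fold enrichment for each peak. MARVELD2, IQCD and F2RL1 are PK15-only genes listed at under 1 TPM in every muscle stage, and UBASH3B is a PK15-only gene that muscle does express. The highest MARVELD2 peak lay in the coding sequence and held 2 copies of GGAC, while the F2RL1 peak lay in the 3' UTR. The KERA stretch held 3 copies of GGAC within 148 bases. Of the 6 most abundant PK15-only genes, RPL7A, SPARC, EIF4A1 and RPL14 held 0 copies of GGAC in peaks of 61, 90, 91 and 61 exonic bases, and CDC42EP5 and TUFM held 4 copies each in 147 and 179. A tall peak could lack the word as well: the highest PK15 peak of TMEM185B held 0 copies in 300 bases. In POLR2A the stretch common to all 7 lists held 0 in 931 bases, and the rest of its peaks was not counted.

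The depth behind the values is unknown, because TPM, a share of all transcripts corrected for gene length, has the same total in every expression file and the peak lists give no read counts. A single unnamed gene took 37.4% to 72.4% of the TPM of a library, which moves every other gene's TPM, and the scaling factors that bring the bulk of genes to a common level ran from 0.305 in E50 replicate 3 to 2.03 in E33 replicate 2. The tissue labels were checked against marker genes. Of 10 markers of kidney tubule epithelium, 4 (CDH1, KRT8 and PAX2 among them) had a peak in PK15, 0 had a peak in any muscle stage, and the 8 with TPM values summed to 0.0729 to 8.64 TPM per muscle library. EPCAM, KRT18, CDH16 and ESRP1 had no peak in the rRNA-depleted PK15 list. Of 10 skeletal muscle markers, 5 (MYOG, DES, TNNT3, TNNI2 and MYH3) had a peak in all 6 muscle stages and none in PK15. CKM was the only one of the 10 with a peak in PK15, and the 8 with TPM values summed to 2769.5 to 17315.4 TPM. The muscle libraries also held markers of fibroblasts (1147.8 to 7472.2 TPM summed over 5 genes), endothelium (15.3 to 88.5 over 5), nerve (5.91 to 266 over 4) and blood and macrophages (10.7 to 473 over 5), and the part of these cells in the muscle peaks was not tested. In such bulk libraries, fewer cells of a type and less RNA per cell cannot be told apart.

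Presence in PK15 followed presence across muscle. Of genes with a peak in a single muscle stage, 41.7% (95% Wilson interval 39.0% to 44.5%) also had a peak in PK15, against 49.3%, 60.6%, 64.5% and 73.9% of those with a peak in 2, 3, 4 and 5 stages. Of the 2465 genes with a peak in all 6 stages, 82.0% (80.4% to 83.5%) had a peak in PK15. The median muscle level of these sets moved with the share, from 4.98 TPM in the genes of 1 stage to 13.5 TPM in the genes of all 6, and its part in the result was not tested. Looked at from the kidney cells, 37.9% of the 5333 PK15 genes had a peak in all 6 muscle stages, 40.8% in 1 to 5 and 21.3% in none. Each stage by itself shared 72.4% (E70) to 78.0% (E40) of its genes with PK15. E40 had the shortest list, with 4928 peaks, and PK15 the longest of the 7, with 9659. With 1 list per stage and per cell preparation there is no replicate of any peak call, and all intervals on shares cover counting error only.

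**Figure D1:**
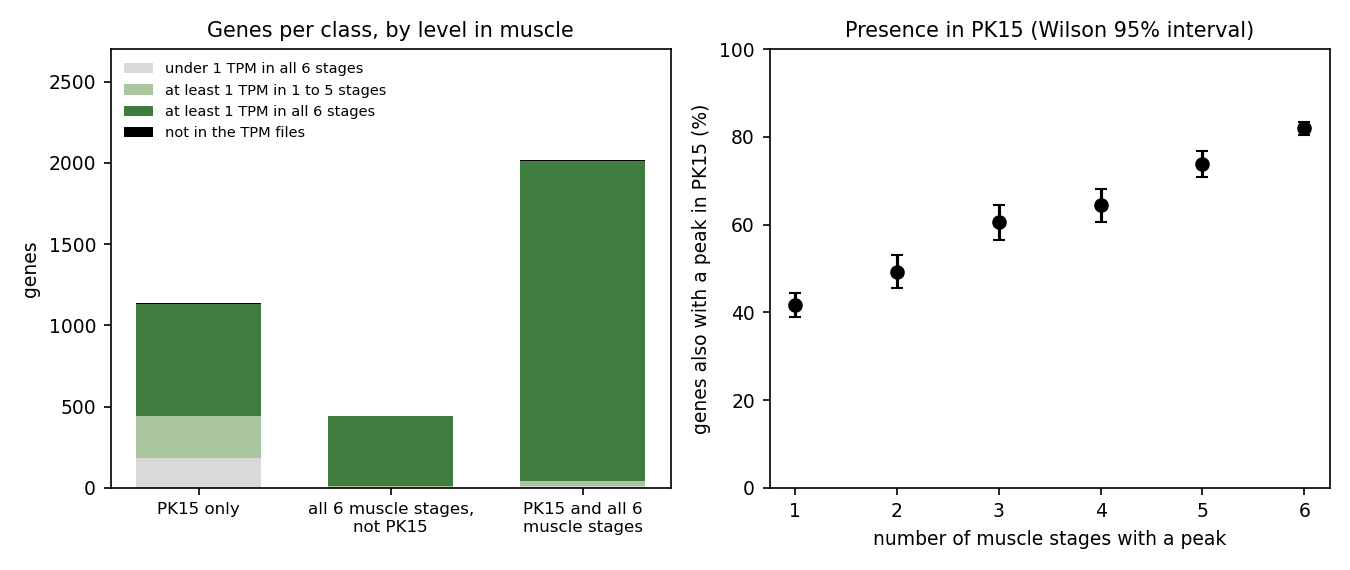
Left, genes in each class (bars from 0), divided by the muscle stage mean TPM of the gene; right, percentage of genes that also had a peak in PK15 against the number of muscle stages with a peak, with 95% Wilson intervals. Genes under 1 TPM in all muscle stages number 183 among PK15-only, 0 among muscle-only and 13 among shared genes, and the share in PK15 runs from 41.7% to 82.0%.

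Most genes with a peak only in PK15 reached 1 TPM in every muscle stage, a share that rests on the threshold. Of the 1130 PK15-only genes in the expression files, 183 (16.2%) had a mean under 1 TPM in all 6 stages, 257 (22.7%) reached 1 TPM in 1 to 5 stages and 690 (61.1%) reached it in all 6. The 183 include 10 genes listed at 0 in every library, and values at or near 0 may be failed estimates in these files. At a threshold of 5 TPM, 250 reached it in all 6 and 544 were under it throughout, and at 0.5 TPM 112 were under it throughout. Of 440 muscle-only genes the numbers were 0, 9 and 431 (98.0%), and of 2014 shared genes 13, 31 and 1970 (97.8%). Over all 22427 genes in the files, 32.8% were under 1 TPM throughout and 48.2% reached 1 TPM in all 6 stages. The genes closest to the threshold included KCNJ16 and HS6ST3, with a highest stage mean of 0.992 and 0.988 TPM, and TMEM177, ESYT3 and KIF5A, with 1.00, 1.02 and 1.02 TPM. Near the other edge, ARHGAP42, SLC12A7 and CA14 had a lowest stage mean of 1.01, 1.01 and 1.02 TPM, and B3GALT1, SLC39A6 and LURAP1 had 0.997, 0.987 and 0.983 TPM.

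Among genes at 1 TPM or more in all stages, the 3 classes held the same order of median level in each of the 18 libraries. The median of the 6-stage mean was 6.57 TPM for PK15-only, 13.3 for shared and 17.4 for muscle-only genes, beside 8.02 for all genes expressed to that degree. Within a library, the median of shared genes was 1.97 to 2.24 times that of PK15-only genes and 0.734 to 0.845 times that of muscle-only genes. The library medians of the PK15-only genes ran from 1.69 to 11.4 TPM, those of the shared genes from 3.78 to 23.7, and those of the muscle-only genes from 4.78 to 28.8. The ratios within a library thus varied far less than the levels between libraries. Even so, 88 of the 690 expressed PK15-only genes (12.8%) were at or above the median of the shared genes in all 6 stages.

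**Figure D2:**
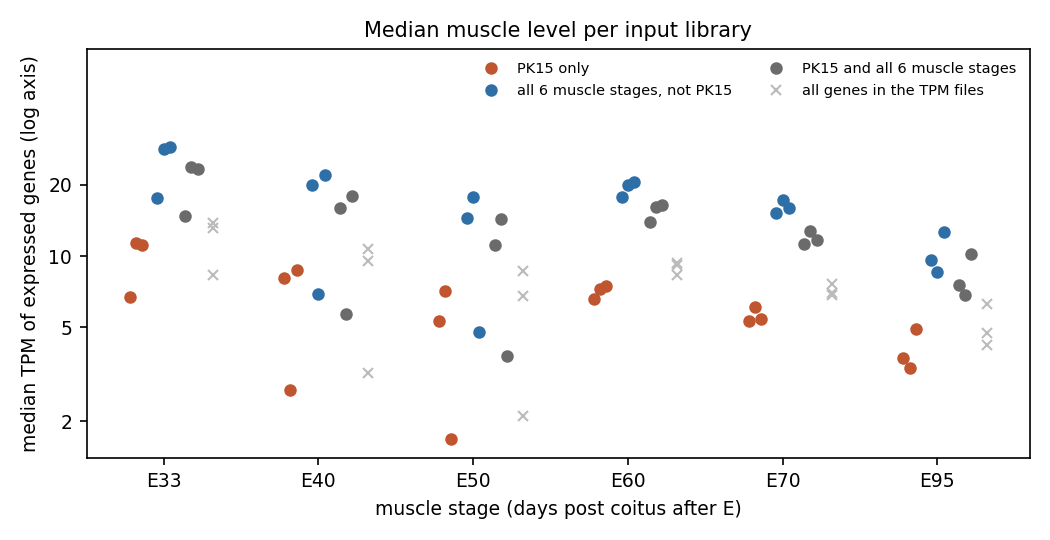
Median TPM (log axis) of the genes with at least 1 TPM in all 6 stages, for each class and for all genes, with a symbol per input library and 3 libraries per stage. In every library the muscle-only median lies above the shared median, and the shared median above the PK15-only median; E40 replicate 2 and E50 replicate 3 lie lowest for every class.

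Among genes at 1 TPM or more in all 6 stages, the share lacking a muscle peak fell with muscle level, and the share lacking a PK15 peak rose only at the highest levels. Of such PK15 genes with a 6-stage mean of 2 to 5 TPM, 25.8% (23.1% to 28.8%) had no muscle peak, and of those at 50 TPM or more, 3.13% (1.80% to 5.40%). Of such genes with peaks in all 6 muscle stages, 15.1% (11% to 20.4%) had no PK15 peak at 2 to 5 TPM, 15.7% at 5 to 10 and 15.0% at 10 to 20. The share was 19.1% (15.9% to 22.6%) at 20 to 50 TPM and 27.8% (23.4% to 32.7%) at 50 TPM or more. The level of these genes in PK15 was not analysed here.

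**Figure D3:**
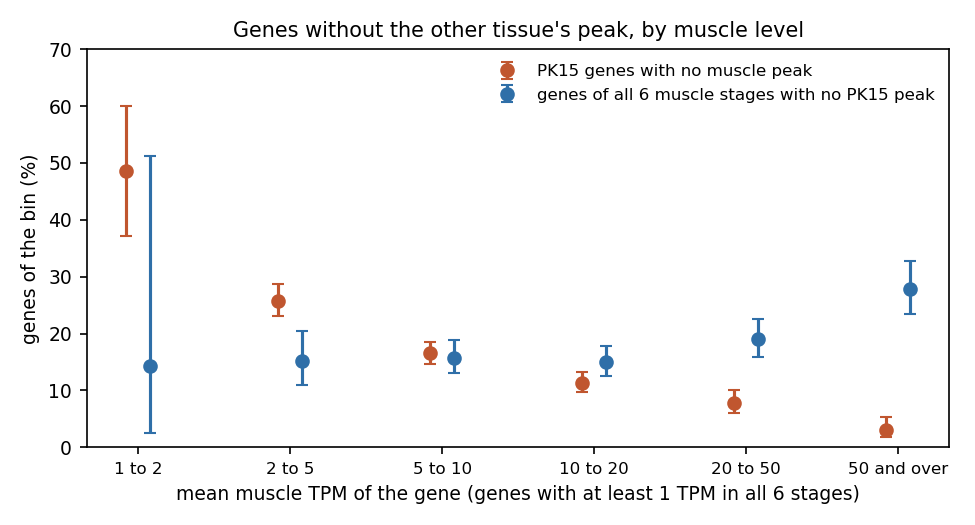
Percentage of PK15 genes without a muscle peak and of genes of all 6 muscle stages without a PK15 peak, by mean muscle TPM, among genes at 1 TPM or more in all 6 stages, with 95% Wilson intervals. The first is 48.6% (34 of 70 genes) at 1 to 2 TPM, 25.8% at 2 to 5 and 3.13% at 50 and over. The second is 15.1%, 15.7% and 15.0% in the 3 bins from 2 to 20 TPM, 19.1% at 20 to 50 and 27.8% at 50 and over. The lowest bin of the second holds only 7 genes.

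PK15-only genes under 1 TPM in all muscle stages included several of epithelial cells. MARVELD2 encodes tricellulin, a tight junction protein at the corners where 3 epithelial cells meet. It had 2 PK15 peaks, the higher at 24.4-fold, and a peak of 13-fold in the polyA list. Its TPM was 0.457 ± 0.0807 (SD, n = 3) at E33 and 0.0924 ± 0.0467 at E95, and over the 18 libraries ran from 0 through a median of 0.143 to 0.525, so no library reached 1 TPM. F2RL1, a protease-activated receptor, had a single PK15 peak of 17.7-fold and library values of 0, 0.129 and 0.675 TPM (lowest, median, highest). EDARADD, the adaptor of the ectodysplasin receptor, also reached 17.7-fold, with 0, 0.0728 and 0.301 TPM. SMPDL3B, a phosphodiesterase-like membrane enzyme, had a peak of 16.0-fold and 0.0807, 0.337 and 0.852 TPM. KLHDC7A, at 16.4-fold with 4 peaks in PK15, was listed at 0 in every muscle library, which in these files may be a failed estimate. IQCD, at 16.8-fold, did not pass 0.000771 TPM in any library, and values this near 0 may be failed estimates too, as given for RUSC1 below. All 6 genes also had a peak in the polyA PK15 list, as did 166 of the 183 genes of this kind (90.7%). Over all genes in the expression files, 37.7% had one.

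The list of 40 kidney tubule and epithelial genes, of which 37 were matched, showed the same division. In it, 11 genes (29.7%) were PK15-only, 0 were muscle-only and 0 were shared, while 4 had peaks outside these classes and 22 had none in the 7 lists. Of the 14760 genes with a symbol, 6.67%, 2.65% and 12.3% fell into the 3 classes. Besides MARVELD2 the 11 included the adhesion and junction genes CDH1, CLDN1, CLDN4 and OCLN and the keratin KRT8. The transcription factors PAX2 and HNF4A, the amino acid transporter subunit SLC3A1 and the endocytic receptor LRP2 were also among them. Peak folds in PK15 ran from 1.68 for KRT8 to 12 for LRP2 and 24.4 for MARVELD2. In muscle, 7 of the 11 were under 1 TPM in all stages and 3 (CDH1, KRT8 and CLDN1) reached 1 TPM in some stages. SLC3A1 was at 0.917, 5.79 and 40.2 TPM (lowest, median and highest library) and had a stage mean of at least 1 TPM throughout. CDH1, which encodes E-cadherin, averaged 2.43 ± 0.293 TPM at E70 and between 0.177 and 0.884 at the other stages. KRT8 averaged 4.08 ± 1.02 TPM at E33 and less than 1 TPM from E40 on. All 11 had a peak in the polyA list. EMX2 and CDH6, also of the list, had a peak in PK15 and in 4 and 1 muscle stages.

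PK15-only genes that muscle expressed strongly had low PK15 peaks. RPL7A, a protein of the large ribosomal subunit, stood at 256, 730 and 1485.0 TPM (lowest, median, highest library) in muscle and had a single PK15 peak of 1.56-fold. SPARC, a matrix-binding glycoprotein, averaged 606 ± 188 TPM at E33, 436 ± 238 at E50 and 512 ± 54.6 at E95 and had a PK15 peak of 1.54-fold, with no peak in the polyA list. EIF4A1, an RNA helicase of translation initiation, the ribosomal protein gene RPL14, the Cdc42 effector CDC42EP5 and TUFM, the mitochondrial elongation factor, had PK15 peaks of 1.69-, 1.32-, 2.15- and 2.06-fold. Each of these 6 genes had 1 peak in PK15. The tallest PK15 peaks among expressed PK15-only genes were those of UBASH3B (24.0-fold), which encodes a tyrosine phosphatase of receptor signalling, TMEM185B (18.3), the spindle protein gene PSRC1 (18.1) and the DNA-binding protein gene JRK (17.7). These were moderately expressed in muscle: UBASH3B at 1.92, 5.48 and 12.8 TPM, and JRK at 8.56, 22.5 and 68.7 TPM.

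Peak height in PK15 was ordered by class and by muscle level. The median of the highest fold per gene was 3.91 in PK15-only genes and 5.41 in shared genes. Within PK15-only genes it was 5.21 for those under 1 TPM in muscle, 4.58 for those above in some stages and 3.32 for those above in all 6. A single PK15 peak was listed for 76.3% of PK15-only and 39.7% of shared genes. In the polyA list, 87.4% of PK15-only and 96.9% of shared genes had a peak again, and 34.2% of muscle-only genes had one. Over all genes in the expression files the share was 37.7%. These heights come from the list that set the classes and are given as a description.

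The tallest muscle-only peaks, by the lowest stage, were those of DACT1, RHOJ, HIC1, AUTS2, KERA, SEMA3A, MYO18B and SCARF2. DACT1, an antagonist of Dishevelled in Wnt signalling, had its highest peak at 8.14-fold in the lowest stage and 14.5-fold in the highest. RHOJ, a small GTPase known from endothelial cells, was at least 8.04-fold at each stage, and HIC1, a transcriptional repressor, from 7.98- to 12.8-fold. AUTS2, a regulator of transcription and neuronal development, ran from 7.96- to 18.9-fold. KERA encodes keratocan, a small proteoglycan of connective tissue, with peaks of 29.4-fold at E33 and 7.89- to 11.6-fold at the later stages. SEMA3A, a secreted guidance cue, ran from 7.74- to 13.5-fold, SCARF2, a scavenger receptor, from 7.20- to 15.2-fold, and MYO18B, an unconventional myosin needed for sarcomere assembly, from 7.50- to 22.1-fold.

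In the muscle libraries, HIC1 averaged 469 ± 111 TPM at E33 and 73.9 ± 1.57 at E95 (SD, n = 3 each), and KERA averaged 8.85 ± 3.77 at E33 and 58.4 ± 42.1 at E40. DACT1, HIC1 and SCARF2 had a peak in the polyA PK15 list, and the other 5 had none. The polyA peak of DACT1 was 64.8-fold and that of HIC1 27.7-fold, although neither gene had a peak in the rRNA-depleted list of the same cell line. The 9 muscle-only genes under 1 TPM in some stage were SATB1, THSD7A, DCHS2, FHOD3, LRRC17, NR1D1, ARMH4, MTCL3 and an unnamed gene, with lowest-stage folds of 3.00 (MTCL3) to 5.55 (LRRC17).

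Of 46 matched genes of sarcomere and contraction, 15 (32.6%) were muscle-only, 3 shared and 0 PK15-only, while 19 had peaks outside these classes and 9 had none. The muscle-only genes included the myosins MYH3, MYH8 and MYL1, the troponins TNNT3 and TNNI2, tropomyosin TPM2, the filament proteins NEB, DES and MYBPC1, and XIRP1, XIRP2, LMOD2, TRIM54 and KLHL40. Their highest peak per stage ran from 1.53-fold (TNNI2) to 20-fold (TNNT3). The 3 shared genes were troponins TNNT1 and TNNC2 and tropomyosin TPM1, with PK15 peaks of 2.80-, 4.91- and 2.70-fold. None of the genes named here as muscle-only had a peak in the polyA PK15 list. MYH3, the embryonic myosin heavy chain, stood at 573, 3915.3 and 6728.1 TPM (lowest, median, highest library).

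Excitation and calcium handling genes divided in the same way, with 6 of 23 muscle-only (CACNB1, JPH1, ATP2A1, TRDN, JSRP1 and MUSK), 1 shared (ASPH) and 0 PK15-only. Of 30 myogenic regulators and fusion genes, 6 were muscle-only, 3 shared and 0 PK15-only. MYOG, the transcription factor of myoblast differentiation, had peaks of 2.89- to 4.97-fold in the 6 stages and 29.3, 142 and 254 TPM. MEF2C, MSC, PITX3 and MEOX2 were also muscle-only. MEF2D and TEAD4 were among the shared regulators, with PK15 peaks of 3.54- and 3.09-fold.

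Genes known from other cell types were muscle-only as well; the members of these lists and of the signalling lists are named after their values were seen. Of 28 extracellular matrix and fibroblast genes, 14 (50.0%) were muscle-only, 1 shared (COL6A1) and 1 PK15-only (SPARC). They included the collagens COL1A1, COL5A1, COL5A2, COL6A2, COL6A3 and COL14A1, the fibrillins FBN1 and FBN2, the matrix proteins LUM, POSTN and TNC, and the growth factor receptors PDGFRA and PDGFRB. TNC, which encodes tenascin C, had the tallest peaks, between 6.40- and 21.4-fold. Of 18 endothelial genes, 5 were muscle-only (PECAM1, CDH5, ERG, PLVAP and CLEC14A), 1 was shared (ENG) and 0 were PK15-only. CDH5, the endothelial cadherin, had a peak of 33.0-fold at E33 and 4.69- to 9.05-fold later, and 3.83, 14.4 and 23.3 TPM. Of 17 nerve and Schwann cell genes, NGFR and NCAM1 were muscle-only and TUBB3 was PK15-only. None of the 17 blood and macrophage genes fell into a class.

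**Figure D4:**
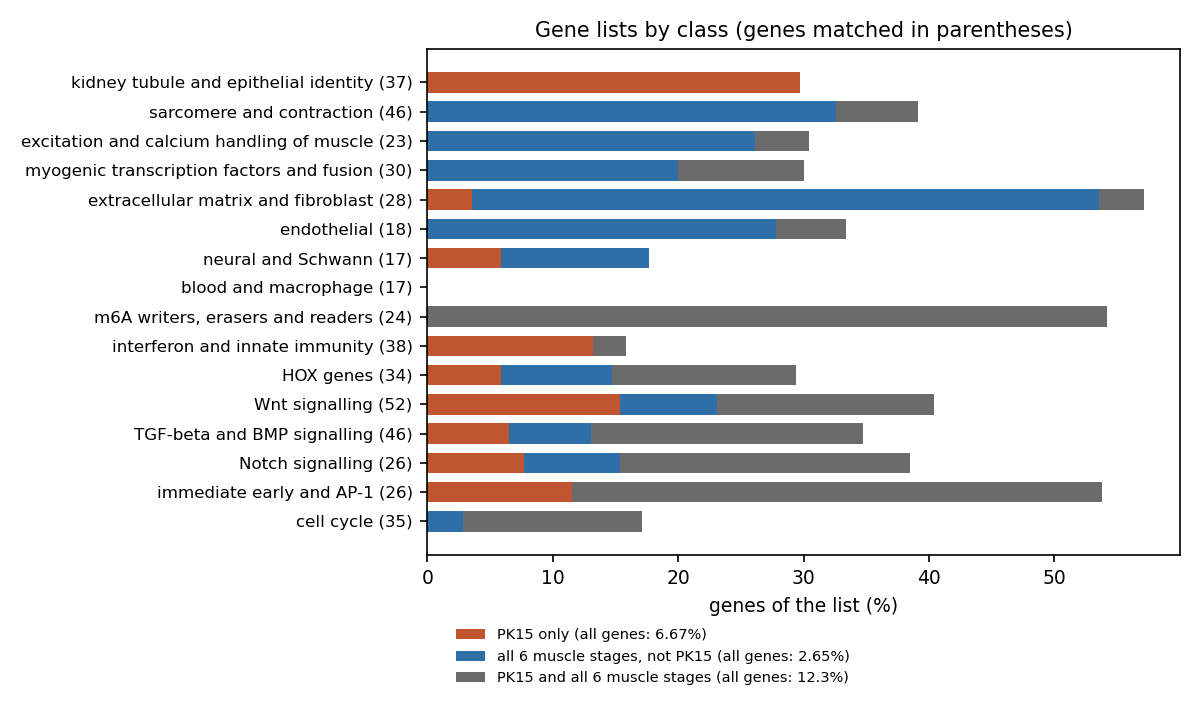
Percentage of each gene list in the 3 classes, with the number of matched genes in parentheses and the shares over all genes with a symbol in the key. Of the 3 classes, the epithelial list has only PK15-only members (29.7%) and the m6A list only shared members (54.2%), and the remaining genes of both lists are in no class. The muscle-only share is above the other 2 classes in the sarcomere, matrix and endothelial lists (32.6%, 50.0% and 27.8%).

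Shared genes held much of the m6A machinery. Of 24 matched genes for writers, erasers and readers, 13 (54.2%) were shared and 0 belonged to either other class. They were the writer METTL16, the writer-complex genes WTAP, VIRMA, RBM15, RBM15B, ZC3H13 and CBLL1, both erasers FTO and ALKBH5, and the readers YTHDF2, YTHDF3, YTHDC1 and PRRC2A. CBLL1 had a PK15 peak of 9.82-fold and muscle peaks of 9.52- to 30-fold. RBM15, which guides the writer complex to its sites, had a PK15 peak of 6.91-fold and muscle peaks of 4.24- to 38.5-fold. YTHDC1, the nuclear reader, had its PK15 peak at 12.9-fold, above its muscle range of 5.52 to 9.64. METTL3 and METTL14, the catalytic core, had no peak in any of the 7 lists.

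The tallest shared genes by the lowest fold over the 7 lists were led by SSC5D, a scavenger receptor protein (13.4-fold in PK15, 10.7 to 51.7 in muscle). ZNRF3, a ubiquitin ligase that removes Frizzled receptors, had 21.6-fold in PK15 and 10 to 13.8 in muscle, followed by CBLL1. POLR2A, the largest subunit of RNA polymerase II, had 8.56-fold in PK15 and 8.56 to 12.6 in muscle, and ARHGAP35, a GTPase-activating protein, 9.14-fold and 8.45 to 11.3. TGFBRAP1, which binds TGF-beta receptors, had 16.4-fold in PK15 and 8.41 to 14.2 in muscle.

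A further 13 shared genes were under 1 TPM in all muscle stages although each had a peak in all 6. They included the small GTPase gene ARF6, with muscle peaks of 7.73- to 13.7-fold and no library above 0.328 TPM, and PLEKHG6, with muscle peaks of 4.59- to 23.7-fold and no library above 0.126 TPM. KLHL22, RNF167, PHF23, KRCC1, ELAC1, CCDC158 and 5 unnamed genes were the others. RNF167 was listed at 0 in all 18 libraries.

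Signalling families split by member. In the Wnt list, 8 of 52 genes were PK15-only, 4 muscle-only and 9 shared. These were 15.4%, 7.69% and 17.3% of the list, beside 6.67%, 2.65% and 12.3% of all genes with a symbol. The ligands WNT7A and WNT7B, the receptors FZD3 and FZD5, DVL1, the nuclear factors TCF7 and LEF1 and the ligase RNF43 were PK15-only, with WNT7B at 14.8-fold in PK15 and at most 0.840 TPM in a muscle library. The receptors FZD4, FZD7 and FZD8 and the secreted inhibitor SFRP2 were muscle-only, and FZD8 stood at 51.0, 150 and 531 TPM. FZD1, LRP5, LRP6, DVL3, AXIN1, APC, CTNNB1, TCF7L2 and ZNRF3 were shared. In the Notch list, NOTCH1 and NOTCH3 were muscle-only, LFNG and RFNG, which modify Notch receptors with sugars, were PK15-only, and NOTCH2, JAG1, RBPJ and MAML1 to MAML3 were shared. In the order PK15-only, muscle-only and shared, the Notch list held 7.69%, 7.69% and 23.1%. RBPJ, the nuclear effector of the pathway, had a PK15 peak of 36.8-fold and muscle peaks of 3.75- to 7.39-fold.

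In the TGF-beta and BMP list, the ligands TGFB2 and TGFB3 and FSTL1 were muscle-only, TGFBR3, BMPR1A and FSTL3 were PK15-only, and 10 of 46 genes were shared, among them TGFBR2, BMPR2, SMAD1, SMAD2 and SMAD3. Of 34 HOX genes, HOXB4 and HOXB6 were PK15-only, HOXA5, HOXA7 and HOXC6 muscle-only, and HOXA3, HOXC8, HOXC9, HOXD3 and HOXD8 shared. All 10 of these HOX genes were at 1 TPM or more in every muscle stage. Among 38 interferon and innate immunity genes, MAVS, MX1, ISG15, TLR3 and MYD88 were PK15-only and IFIT5 was shared. Of 26 immediate early genes, 11 were shared and JUNB, IER3 and DUSP5 were PK15-only. Of 35 cell cycle genes, 5 (CDK6, CDKN1B, TOP2A, MCM2 and MCM3) were shared and CDKN1C was muscle-only. In the same order of classes, the TGF-beta and BMP list held 6.52%, 6.52% and 21.7%, and the HOX list 5.88%, 8.82% and 14.7%. The interferon list held 13.2%, 0% and 2.63%, the immediate early list 11.5%, 0% and 42.3%, and the cell cycle list 0%, 2.86% and 14.3%. Several of these shares lay near the 6.67%, 2.65% and 12.3% of all genes with a symbol, and the differences were not tested.

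In shared genes the peaks mostly lay at the same place in both tissues. Of 4716 PK15 peaks in shared genes, 90.5% (95% Wilson interval 89.7% to 91.3%) overlapped a peak of at least 1 muscle stage by 1 exonic base or more, and 56.3% (54.9% to 57.7%) overlapped a peak of all 6. At least 1 PK15 peak overlapped all 6 stages in 1895 of the 2021 genes (93.8%). Only 2 shared genes, CHFR and PDE4DIP, had no PK15 peak that overlapped a muscle peak; they are named for this reason and not by a rule. From the muscle side, 85.5% (E33) to 92.0% (E40) of the peaks in shared genes overlapped a PK15 peak. None of the 1547 PK15 peaks in PK15-only genes overlapped a muscle peak listed under another gene (Wilson interval up to 0.248%). Likewise, 0 of 444 muscle-only genes had a muscle peak overlapping a PK15 peak listed under another gene. As the classes already exclude a peak under the gene's own name, these counts check only how peaks were assigned to genes. Absence of the sites from the other tissue was not tested.

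Peaks of PK15-only genes lay near the stop codon more often than those of shared or muscle-only genes. Placed by their midpoint in RefSeq coding transcripts, 29.7% (27.5% to 32%) of 1532 PK15 peaks in PK15-only genes were within 200 bases of the stop codon and 42.5% elsewhere in the coding sequence. In shared genes, 16.2% (15.2% to 17.3%) of 4623 PK15 peaks were near the stop codon and 65.4% elsewhere in the coding sequence. The muscle lists gave 15.7% to 17.9% near the stop codon for muscle-only genes and 15.6% to 17.5% for shared genes, with overlapping intervals at each stage. Genes outside the 3 classes stood at 25.3% (23.9% to 26.8%) in PK15 and at 22.7% (E40) to 29% (E60) in the muscle lists.

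Several features moved with this difference. PK15-only genes more often had a single peak, and among genes with a single PK15 peak the share near the stop codon was 37.3% (34.1% to 40.6%) in PK15-only and 28.4% (25.3% to 31.6%) in shared genes. Among genes with 2 or more PK15 peaks it was 20% (17.1% to 23.2%) and 13.7% (12.7% to 14.9%). PK15 genes outside the 3 classes had 35.6% (33.1% to 38.2%) and 18.5% (16.8% to 20.2%), with intervals overlapping those of PK15-only genes. The RefSeq transcripts of PK15-only genes were also shorter, with a median of 3216.0 bases against 4518.0 for shared and 4672.5 for muscle-only genes, for the 81.1% to 83.3% of each class matched by symbol. Median peak length was 151 bases in PK15-only and 241 in shared genes. The part of length in the difference of position was not tested.

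GGAC was common under the peaks of every class. On the transcript strand it was present in 65.6% (63.2% to 67.9%) of PK15 peaks in PK15-only genes, in 75% (73.7% to 76.2%) of PK15 peaks in shared genes and in 71.5% of all PK15 peaks. In the muscle lists it was present in 76.0% to 80.5% of the peaks of muscle-only genes and 72.3% to 75.8% of those of shared genes. Peaks of genes outside the 3 classes held it in 69.2% in PK15 and in 58.5% to 66.0% in the muscle lists. Density per base ran the other way in PK15, with 7.21 copies per 1000 exonic bases in PK15-only and 6.67 in shared genes, the PK15-only peaks being shorter. Windows of the same length taken outside all peaks of the same transcripts held GGAC in 37.9% for PK15-only and 42.6% for shared genes, where the exonic peaks themselves held it in 66.5% and 75.8%. The reversed word CAGG was present in 67.8% and 77.8% of the same peaks and in 50.4% and 56.5% of the windows, so GGAC stood further above its windows than CAGG did. Any of the 18 words of DRACH was present in 93.5% of the PK15 peaks in PK15-only and 96.6% of those in shared genes. A match of letters is a description and not a mapped m6A site.

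**Figure D5:**
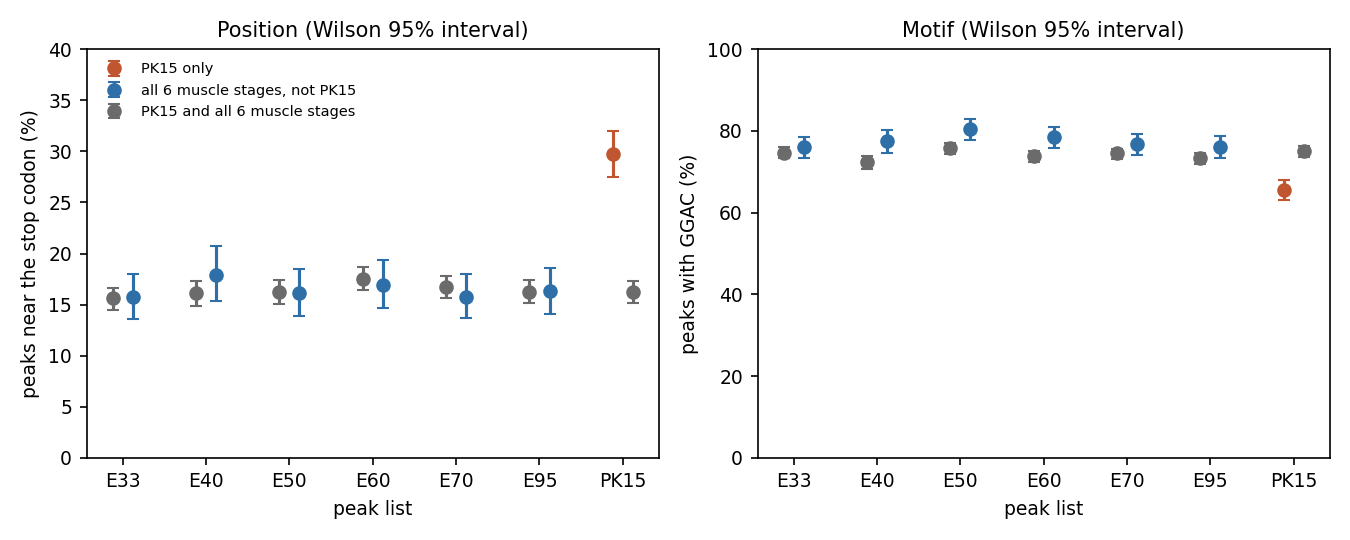
Percentage of peaks within 200 bases of a stop codon (left) and percentage holding GGAC (right) per peak list and class, with 95% Wilson intervals for counting error. The PK15-only point lies at 29.7% near the stop codon, and at 65.6% for GGAC, where shared and muscle-only points lie at 15.6% to 17.9% and at 72.3% to 80.5%; genes outside the 3 classes, not plotted, had 22.7% to 29% and 58.5% to 69.2%.

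Expression across muscle development was then set beside the classes. The TPM values come from the input libraries that the muscle peaks were called against, and so are not independent of the peak calls. TPM was scaled so that the bulk of genes kept a common level, and the 6 stages were compared on log2(TPM + 1) with limma and Benjamini-Hochberg adjustment over 13334 genes. The F test called 47.3% of all genes at an adjusted p under 0.05. It called 393 of 853 tested PK15-only genes (46.1%), 995 of 1996 shared genes (49.8%) and 353 of 439 muscle-only genes (80.4%). The first 2 shares were close to the background and the muscle-only share lay above it. Muscle-only genes were also the most abundant class, at the median of 17.4 TPM given above, and the part of abundance in this share was not tested. On TPM as deposited the same test called 163 PK15-only, 344 shared and 147 muscle-only genes, with 2680 called overall.

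Between E33 and E95, limma called 46.7% of all genes in either direction, 23.7% higher and 23.0% lower at E95. Of the PK15-only genes tested, 183 were higher and 197 lower, of the shared genes 456 and 552, and of the muscle-only genes 160 and 153. The median log2 change was 0.01, -0.04 and 0.02 in these classes, beside 0.00 over all genes. The split rests on the scaling: on TPM as deposited, where the median of all genes moved by -1.02, the calls were 10 higher and 412 lower, 12 and 1164, and 23 and 219 in the same order, against 352 and 6109 over all genes. Changes below are relative to the bulk of genes.

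The largest changes among muscle-only genes were those of TNNI2, JSRP1 and TNNT3, which rose, and TNC, FIBIN and ZIC1, which fell. TNNI2, the fast skeletal troponin I, was at 181, 351 and 372 TPM in the 3 libraries of E33 and at 3746.9, 5159.8 and 5042.0 TPM in those of E95, with no overlap. It rose by 5.27 ± 0.21 (log2, SE; limma adjusted p = 2.13e-10), and by 4.0 as deposited. JSRP1, a protein of the calcium release machinery, rose by 4.54 ± 0.30 (adjusted p = 2.1e-08) and TNNT3, the fast troponin T, by 4.29 ± 0.16 (1.32e-10). TNC was at 65.3, 103 and 110 TPM at E33 and at 1.86, 1.44 and 1.68 TPM at E95, and fell by 4.02 ± 0.12 (adjusted p = 1.91e-11). FIBIN, which encodes a secreted protein, fell by 2.76 ± 0.30 and the transcription factor gene ZIC1 fell by 2.64 ± 0.19. All 6 genes kept their direction on TPM as deposited.

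Among shared genes, the transcriptional repressor BHLHE40 rose by 4.15 ± 0.25 (adjusted p = 7.66e-09), the small heat shock protein gene HSPB6 by 4.05 ± 0.21 and the RNA-binding protein gene YBX3 by 3.84 ± 0.17. HSPB6 was at 29.7, 45.7 and 53.9 TPM at E33 and at 278, 321 and 293 at E95. The RNA-binding protein gene MEX3A fell by 3.67 ± 0.25 (adjusted p = 2.66e-08), the homeobox gene ZFHX3 fell by 2.90 ± 0.16 and MARCKSL1, which encodes an actin-regulating protein, fell by 2.45 ± 0.24. MEX3A was at 109, 191 and 178 TPM at E33 and at 5.57, 2.37 and 6.25 at E95. These directions also held as deposited.

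Among PK15-only genes, HOXB6 was at 134, 245 and 261 TPM at E33 and at 4.46, 5.59 and 10.4 TPM at E95, and fell by 3.59 ± 0.33 (limma adjusted p = 5.5e-07). FADS1, a fatty acid desaturase, was at 55.8, 93.5 and 107 TPM at E33 and at 4.56, 3.8 and 4.54 at E95, and fell by 2.80 ± 0.16 (adjusted p = 4.12e-09). Both genes were thus well expressed in the earliest muscle without a muscle peak. RUSC1 fell by 3.74 ± 0.67 (adjusted p = 0.000368), from 12.8, 24.5 and 28.0 TPM to 0.00106, 0.00099 and 0.00114. Values this near 0 may be failed estimates too, since ARF6 and PLEKHG6 had like values and peaks in all stages. ECM1, a matrix protein gene, rose by 2.63 ± 0.34 (adjusted p = 1.71e-05). JUNB, a subunit of the AP-1 factor, was listed at 0 in all 3 libraries of E33 and at 21.2, 33.4 and 27.0 TPM at E95. ROMO1, a mitochondrial inner membrane protein gene, was listed at 0 at E33 and at 11.3, 46.3 and 8.78 TPM at E95. A listed 0 in these files may be a failed estimate, so no fold is given for either gene.

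Within the gene lists, limma called 15 of 17 tested sarcomere members of the classes higher at E95 and 1 (MYH3) lower, where the scale as deposited gave 10 higher and 2 lower. Over all genes, 23.7% were called higher and 23.0% lower on the scaled values. Of 10 HOX members, 9 were lower and HOXD8 higher, and as deposited 9 were lower and 0 higher. Of 16 matrix and fibroblast members, 7 were higher and 5 lower, against 0 and 6 as deposited, and COL1A1, called higher by 1.24 ± 0.31 (limma adjusted p = 0.00431), stood at -0.04 as deposited. Of 6 endothelial members, 5 were higher and 0 lower, against 0 and 1 as deposited. Of the 13 shared m6A genes 5 were called, where 46.7% of all genes were. VIRMA, ALKBH5 and YTHDC1 were higher, by 0.49, 0.40 and 0.33, RBM15B fell by 0.97 ± 0.18 (limma adjusted p = 0.000548) and FTO fell by 0.24, and 8 were not called, whereas as deposited 0 were higher and 7 lower. The median log2 change of these lists was 2.97, -1.49, 0.21, 1.37 and -0.05 in this order, beside 0.00 over all genes.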

How the data were processed

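MeRIP-seq sequences input RNA and RNA pulled down with an antibody against m6A. Reads were handled with Trimmomatic and HISAT2 against Sscrofa11.1, per the submitters' processing notes; the quantifier, the peak caller, its threshold and whether replicates were pooled are not given in the sources used here. Expression values are TPM computed by the authors, per the file headers, with 1 deposited file per muscle input library. The deposited peak lists give a fold enrichment and a p-value per peak, both the authors' own, with their log10 values and an FDR; the deposited log10 columns were used only to read the FDR of the PK15 list.

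Genes were classed by peak presence in a list, with 1 list per stage or preparation and hence no test. Stage means covered 3 libraries, with 1 TPM as the threshold. Genes averaging 1 TPM or more over the 18 libraries were scaled by median ratios, and log2(TPM + 1) went into limma (version 3.58.1, R 4.3.3) with no block and an adjusted p under 0.05 as the call. The script was tested on simulated data with known changes. Replicate numbers were checked for pairing: deviations of same-numbered libraries correlated at -0.12 to 0.10, so the numbers do not pair them. Coordinates were taken as 0-based starts, since 86.7% to 90.6% of the block junctions per list fell exactly at RefSeq introns; printed starts are 1-based. Wilson intervals are at 95%. Python 3.11.15, pandas 2.3.3, scipy and pysam did the rest.

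Genes were named by rule, among those with a symbol. Of PK15-only genes, these were the 6 with the highest PK15 fold among those listed under 1 TPM in all muscle stages. Those at 1 TPM or more in all 6 gave the 6 with the highest TPM and the 4 with the highest fold. Of muscle-only and of shared genes, they were the 8 and the 6 with the highest lowest-list fold. The 3 largest E95 against E33 changes each way per class with separate libraries, and the class members of 6 gene lists (epithelial, sarcomere, excitation, myogenic, m6A and HOX), were added; members of the other lists and the small sets were named after their values were seen. The members, lists and rules were chosen with earlier results of these data known. Alternatives were other thresholds, scalings, peak subsets, the polyA list and left-out libraries.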

Additional observations from a re-analysis of the deposited data

Results flagged for a closer look

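Among the 444 genes with a peak in all 6 muscle stages and none in the rRNA-depleted PK15 list, 152 (34.2%) had a peak in the polyA PK15 list, which the sorting into classes did not use. They were flagged because a signal appeared there for genes that the classes count as lacking a PK15 peak. Over all 22427 genes in the expression files, 37.7% had a peak in the polyA list, so the share of these genes was no higher than that of all genes. The polyA list holds 16492 peaks against 9659, and the cause was not tested.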

How the results depend on the processing

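The number of PK15-only genes was 684 with equally long lists of the highest peaks and 3517 with the polyA list in place of the rRNA-depleted list. Shared genes numbered 1184 with equally long lists, 823 with peaks above the median fold of their list and 1094 with the peaks below their list's median p-value, and muscle-only genes 248 above the median fold. Keeping PK15 peaks at an FDR of at most 0.01, an alternative chosen after seeing the data, left 1128, 448 and 2017 PK15-only, muscle-only and shared genes. PK15-only genes under the threshold in all stages numbered 112 at 0.5 TPM and 544 at 5 TPM, and those over it in all stages 250 at 5 TPM. At 5 TPM, 20 muscle-only and 110 shared genes were under it throughout. The share of PK15 peaks of shared genes overlapping a muscle peak was 88.3% above the median fold and 72.1% with the polyA list.

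The share near the stop codon within 100 bases, within 400 bases and above the median fold was 18.1%, 41.6% and 33.2% for PK15-only genes and 8.72%, 26.3% and 19.1% for shared genes in PK15. In the muscle lists it was 8.71%, 26.5% and 21.0% for muscle-only and 8.80%, 26.5% and 19.8% for shared genes. Any DRACH word was present in 93.5%, 96.6%, 97.3% and 96.5% of peaks in the same order, and GGAC above the median fold in 74.2%, 84.0%, 86.7% and 82.1%. CAGG was present in 77.7% and 76.8% of the peaks of shared genes in PK15 and muscle.

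On TPM as deposited the F test called 2680 genes in all, 163 PK15-only, 147 muscle-only and 344 shared genes. Without 1 replicate, it called 5410 to 6662, 326 to 419, 336 to 360 and 839 to 1067, and E95 against E33 called 5319 to 6427, 324 to 400, 293 to 317 and 865 to 1038. Leaving out replicates moved the PK15-only genes at 1 TPM in all stages to 663 to 677 and those under it to 174 to 187. For muscle-only genes these were 426 to 429 and 0, and for shared genes 1953 to 1967 and 13 to 14. With the replicate number as a block, the F test called 6008, 370, 345 and 937 and E95 against E33 called 6113, 370, 310 and 986, each within 1.5 times the count without it. The cause of these differences was not tested. No fit changed the direction of the 18 genes named for their change. The peak calls have no replicate and no depth, so no class boundary has an error.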
